A study of Homo sapiens with 31 samples.

Results

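ABC transporters are membrane proteins that bind and hydrolyse ATP and use it to move substrates across membranes. Their genes were taken from a table of FPKM (a level corrected for both gene length and library size) by their symbols, ABC followed by a subfamily letter from A to G and a number. The table held 45 such genes among 19221. mRNA was sequenced in 31 libraries of 4 groups of cancer cell lines, which the study used as models of ovarian cancer. C13*, a cisplatin-resistant line, carried a lentiviral control shRNA (C13* shCON, n = 7) or an shRNA against CEBPB, the gene of the transcription factor C/EBPβ (C13* shCEBPB, n = 8), so that both C13* groups had been infected with virus. A2780 (n = 8) was the parent line without olaparib, and A2780 OlaR (n = 8) was the resistant derivative obtained from A2780 after months in rising doses of this PARP inhibitor. All groups were cultured lines. The study itself questions the use of C13* because of its origin, and cites a report that A2780 is an unlikely model of high-grade serous ovarian cancer. The labels do not say that libraries of a group came from separate cultures, and p-values then measure only the spread between libraries.

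ABC proteins fall into subfamilies with distinct roles. Pumps of subfamilies B, C and G at the plasma membrane expel drugs and conjugated metabolites, subfamily A moves lipids, a set of subfamily B members sits in mitochondria, subfamily D works in peroxisomes and lysosomes, and subfamilies E and F have the ATP-binding domains without any membrane part and act on ribosomes. ABCB1 (P-glycoprotein), ABCC1 to ABCC5 (the multidrug resistance proteins, MRP) and ABCG2 (breast cancer resistance protein) are known for drug resistance in cell lines, and ABCB1 is known to carry olaparib.

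The libraries went against their labels in one respect that touches every comparison. Over 12967 genes, log2(FPKM + 1) of the libraries labelled C13* shCON and A2780 OlaR correlated with a median Pearson r of 0.989, close to the medians of 0.993 to 0.997 within groups, whereas r was 0.789 between shCEBPB and shCON and 0.706 between OlaR and A2780. These are descriptions across genes, which are not independent replicates. The keratin gene KRT5 lay between 1368 and 1633 FPKM in shCON and between 1619 and 1991 FPKM in OlaR, while every A2780 library had it at 0 and it was at most 0.0416 FPKM in shCEBPB. The 5 squamous markers had summed FPKM of 2509 to 3052 in shCON, 2550 to 3347 in OlaR, 85.2 to 172 in shCEBPB and 0.416 to 1.87 in A2780, and the 5 mesenchymal markers had 32.8 to 38.0, 24.6 to 29.0, 350.0 to 378 and 857 to 899. VIM made up most of the mesenchymal sums in shCEBPB and A2780, with means of 342 and 809 FPKM. In shCON and OlaR it had means of 9.82 and 0.160 FPKM, below CDH2 at 17.3 and 18.4. FN1 was lowest in A2780 (0.524 FPKM, against 7.93 in shCON, 7.70 in OlaR and 6.98 in shCEBPB). CDH2 was lower in shCEBPB (7.56 FPKM) than in shCON and highest in A2780 (58.5). The 9 ovarian or epithelial markers had summed FPKM of 948 to 1034 in shCON and 953 to 1039 in OlaR. Their sum was 2722 to 3002 in shCEBPB and 96.4 to 108 in A2780. KRT7, KRT8, KRT18 and FOLR1 were higher in shCEBPB than in shCON, while PAX8, EPCAM and CDH1 were lower. KRT7 had means of 583 and 8.02 FPKM in these groups, and EPCAM had 0.567 and 111. The 4 immune markers had summed FPKM of 62.7 to 70.1 in shCON, 37.7 to 45.6 in OlaR, 10.6 to 13.2 in shCEBPB and 78.9 to 104 in A2780, and different genes made up these sums. PTPRC stood at 75.7 to 103 FPKM in A2780 and at most 0.0144 elsewhere. CD68 went the other way, with means of 2.22 FPKM in A2780, 65.4 in shCON, 41.9 in OlaR and 11.7 in shCEBPB. CD14 had no group mean above 0.309 FPKM, and CD3E was at 0 in every group. The 4 fibroblast markers had summed FPKM of 2.98 to 3.63 in shCON and 3.63 to 5.12 in OlaR. Their sum was 12.3 to 18.8 in shCEBPB and 35.5 to 38.3 in A2780. The part of these markers in the results below was not tested. Line, knockdown and drug selection therefore cannot be told apart in the comparisons that cross this divide, and group names below are those of the labels. The library codes in the table begin with CS for shCON and C for OlaR, the groups that are alike, and with R for shCEBPB and O for A2780. Whether labels were exchanged between groups was not tested. CEBPB, the targeted gene, stood at 30.2, 49.5 and 58.7 FPKM (lowest, median, highest) in shCEBPB and at 75.2, 85.4 and 101 FPKM in shCON, so that the groups did not overlap. Its means were 99.7 FPKM in A2780 and 112 in OlaR, with overlapping libraries, against 85.8 in shCON. The study, from western blots, describes A2780 as low and C13* as high in C/EBPβ, whereas these values are RNA. In 1 shCON library (replicate 1) a single label field names A2780. FPKM give no read totals, and depth relative to the other libraries, read from the steps of low values, ran from 0.856 to 1.22.

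Of the 45 genes, 31 had a mean of at least 1 FPKM in some group, and 21 had it in all 4 groups. The other 14 stayed below 1 FPKM in every group mean: ABCA1, ABCA4, ABCA6, ABCA8, ABCA9, ABCA10, ABCB4, ABCB11, ABCC8, ABCC11, ABCC12, ABCD2, ABCG5 and ABCG8. The highest group mean among them was 0.670 FPKM, of ABCA1, the cholesterol exporter, in shCON. All 45 members together summed to means of 405 FPKM in shCON, 494 in shCEBPB, 375 in A2780 and 413 in OlaR.

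**Figure D1:**
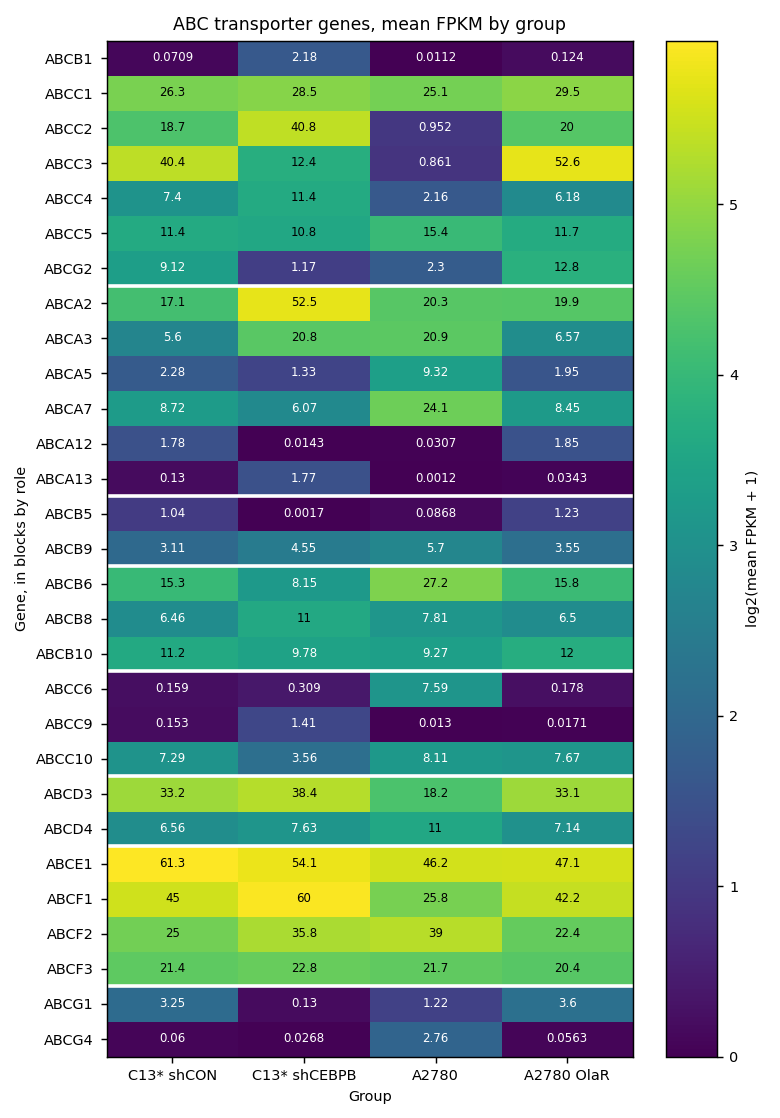
Mean FPKM of 29 ABC transporter genes with a mean of at least 1 FPKM in some group, by group (columns, n = 7 or 8 libraries), with the numbers printed in the cells and colour on a log2(mean FPKM + 1) scale. Rows are in blocks by role, from drug efflux pumps at the top to sterol transporters of subfamily G at the bottom, and the shCON and OlaR columns look alike row by row while shCEBPB and A2780 differ from them and from each other.

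The windows of 250 bases before the RefSeq gene start are shown for 4 of the drug efflux pumps. Of the pumps that the promoter table (RefSeq, GRCh38.p14) holds, these had the widest differences between groups. ABCC1 and ABCC3 had no entry. The capitals mark the only match to the motifs searched, a TGACNNNGC motif (the core of the element bound by NRF2) read on the opposite strand of the ABCC4 window.
ABCB1, chr7:87713296-87713545, minus strand: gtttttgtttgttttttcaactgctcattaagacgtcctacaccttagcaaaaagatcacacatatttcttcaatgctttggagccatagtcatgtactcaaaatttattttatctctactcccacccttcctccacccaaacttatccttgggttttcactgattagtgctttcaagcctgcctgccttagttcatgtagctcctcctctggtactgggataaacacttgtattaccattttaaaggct
ABCC2, chr10:99782390-99782639, plus strand: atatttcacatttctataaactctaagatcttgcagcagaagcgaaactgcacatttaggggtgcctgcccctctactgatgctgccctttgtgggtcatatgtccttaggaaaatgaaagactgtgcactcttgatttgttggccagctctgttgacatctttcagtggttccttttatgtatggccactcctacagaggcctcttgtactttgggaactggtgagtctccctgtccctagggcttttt
ABCC4, chr13:95301452-95301701, minus strand: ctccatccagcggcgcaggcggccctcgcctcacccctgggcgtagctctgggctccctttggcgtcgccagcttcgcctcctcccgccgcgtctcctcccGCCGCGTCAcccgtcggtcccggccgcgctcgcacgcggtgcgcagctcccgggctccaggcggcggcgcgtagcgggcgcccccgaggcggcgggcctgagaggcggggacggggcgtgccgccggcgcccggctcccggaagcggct
ABCG2, chr4:88231627-88231876, minus strand: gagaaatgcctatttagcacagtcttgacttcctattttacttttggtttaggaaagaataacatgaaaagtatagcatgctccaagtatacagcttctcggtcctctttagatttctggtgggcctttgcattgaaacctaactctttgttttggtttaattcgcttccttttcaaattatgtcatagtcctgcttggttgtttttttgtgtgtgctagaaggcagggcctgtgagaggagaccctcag

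Motifs were searched on both strands of these windows, with no overlap between motifs considered. The C/EBP motif TTGCNNAA was in 4 of the 35 members in the table (ABCA6, ABCB11, ABCE1 and ABCG4) and in 9.13% of 27305 promoters. The TGACNNNGC motif was in 6 members (ABCA2, ABCA3, ABCB6, ABCC4, ABCD4 and ABCF1) and in 11% of all promoters. GGGCGG, the GC box, was in 18 members and in 42.3% of all promoters, and CCAAT was in 6 members and in 33.0%. None of the 4 windows printed held TTGCNNAA, which says only that these letters are not in those bases.

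ABCB1 (chr7:87503017-87713323, minus strand, GENCODE 44 on hg38), the broad drug pump, was above 1 FPKM in shCEBPB libraries and in no others. Its FPKM were 1.53, 2.03 and 2.85 (lowest, median, highest) in shCEBPB, 0.0435, 0.0840 and 0.0992 in shCON, 0.0960, 0.114 and 0.164 in OlaR, and 0, 0.0106 and 0.0250 in A2780. The shCEBPB libraries lay above all others, and they varied among themselves, with 1.70 to 1.85 FPKM in libraries 1 to 3 and 1.53 to 2.85 in libraries 4 to 8. On the log2(FPKM + 1) scale, which understates changes of low genes, the difference was 1.55 ± 0.09 (SE) against shCON and 1.64 ± 0.08 against A2780. ABCB1 passed the filter on low values through shCEBPB alone, so these are descriptions, and it was not fitted between the other groups. In bulk RNA such as this, fewer cells that express a gene and less RNA of it per cell cannot be told apart. Its neighbour ABCB4 (chr7:87401696-87480435), a phospholipid transporter of bile, had group means of at most 0.0457 FPKM.

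ABCG2 (chr4:88090150-88231628, minus strand), an exporter of conjugates and many drugs, was high in shCON and OlaR. It stood at 8.13, 9.16 and 10.2 FPKM in shCON and 11.4, 12.3 and 14.4 FPKM in OlaR, against 0.752, 1.16 and 1.60 in shCEBPB and 2.07, 2.30 and 2.67 in A2780. No pair of the 4 groups overlapped, and the order was OlaR, shCON, A2780, shCEBPB. ABCG2 fell by 2.23 ± 0.08 on the log2(FPKM + 1) scale in shCEBPB against shCON. It rose by 2.06 ± 0.05 in OlaR against A2780 (limma, adjusted p = 5.44e-18). The ratio of the highest to the lowest group mean was 10.97. Its difference of -0.62 ± 0.07 between shCEBPB and A2780 was -0.14 and no longer called with quantile normalization. Only 6 of 8 shCEBPB libraries reached 1 FPKM, so ABCG2 passed the filter on low values through shCON or A2780. The differences of ABCG2 between shCEBPB and these groups are therefore descriptions.

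ABCC2 and ABCC3, MRP2 at apical and MRP3 at basolateral membranes, both export glucuronide and glutathione conjugates. Both were near 1 FPKM in A2780, at 0.653, 0.946 and 1.19 for ABCC2 and 0.644, 0.879 and 1.01 for ABCC3. ABCC2 (chr10:99782640-99852594, plus strand) was at 16.8, 18.8 and 21.5 FPKM in shCON, 17.6, 19.0 and 23.5 in OlaR and 33.5, 38.4 and 53.5 in shCEBPB. ABCC2 libraries of shCON and OlaR overlapped, and every other pair of groups was apart. ABCC3 (chr17:50634777-50692253, plus strand) had a different order, with 46.9, 52.9 and 59.0 FPKM in OlaR, 38.0, 40.9 and 43.0 in shCON and 10.7, 11.9 and 15.3 in shCEBPB, and no pair of groups overlapped. In shCEBPB against shCON the log2(FPKM + 1) of ABCC2 rose by 1.07 ± 0.10 (limma, adjusted p = 8.51e-09) and that of ABCC3 fell by 1.64 ± 0.07 (adjusted p = 1.01e-13). In OlaR against A2780 both were higher, ABCC2 by 3.42 ± 0.07 and ABCC3 by 4.85 ± 0.05. Only 3 of 8 A2780 libraries for ABCC2 and 1 of 8 for ABCC3 reached 1 FPKM, so that both passed the filter on low values through OlaR, and these differences are descriptions.

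ABCC4 (chr13:95019835-95301475, minus strand), MRP4, exports cyclic nucleotides and prostaglandins. It was at 9.79, 10.8 and 13.3 FPKM in shCEBPB, 6.84, 7.33 and 8.13 in shCON, 5.26, 6.30 and 7.21 in OlaR and 1.70, 2.24 and 2.41 in A2780. Only shCON and OlaR overlapped. It rose by 0.56 ± 0.07 on the log2(FPKM + 1) scale in shCEBPB against shCON (limma, adjusted p = 3.31e-07) and by 1.18 ± 0.06 in OlaR against A2780 (adjusted p = 5.12e-13), and it was higher in shCON than in OlaR by 0.23 ± 0.06 (adjusted p = 0.00508), a call that was lost in libraries 1 to 3 alone at 0.08.

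ABCC1 and ABCC5 differed little between groups. ABCC1 (chr16:15949138-16143257, plus strand), MRP1, the glutathione-conjugate pump, ran from 23.2 FPKM in the lowest A2780 library to 31.3 FPKM in the highest OlaR library, and its group means of 25.1 to 29.5 spanned a ratio of 1.18. ABCC5 (chr3:183919934-184017939, minus strand), MRP5, which carries cyclic nucleotides, was at 14.5, 15.4 and 16.3 FPKM in A2780 and between 9.80 and 12.5 FPKM in every other library. A2780 was thus apart for ABCC5, and the other 3 groups overlapped. ABCC1 was called in all 4 comparisons, with log2(FPKM + 1) differences of 0.11 in shCEBPB against shCON, 0.22 in OlaR against A2780, -0.16 in shCON against OlaR and 0.18 in shCEBPB against A2780. The first of these was lost with quantile normalization and within either library range, and the third was lost in libraries 1 to 3 at -0.08. ABCC5 was not called in shCEBPB against shCON (-0.07 ± 0.04, adjusted p = 0.116) or in shCON against OlaR (-0.02 ± 0.03, adjusted p = 0.59).

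**Figure D2:**
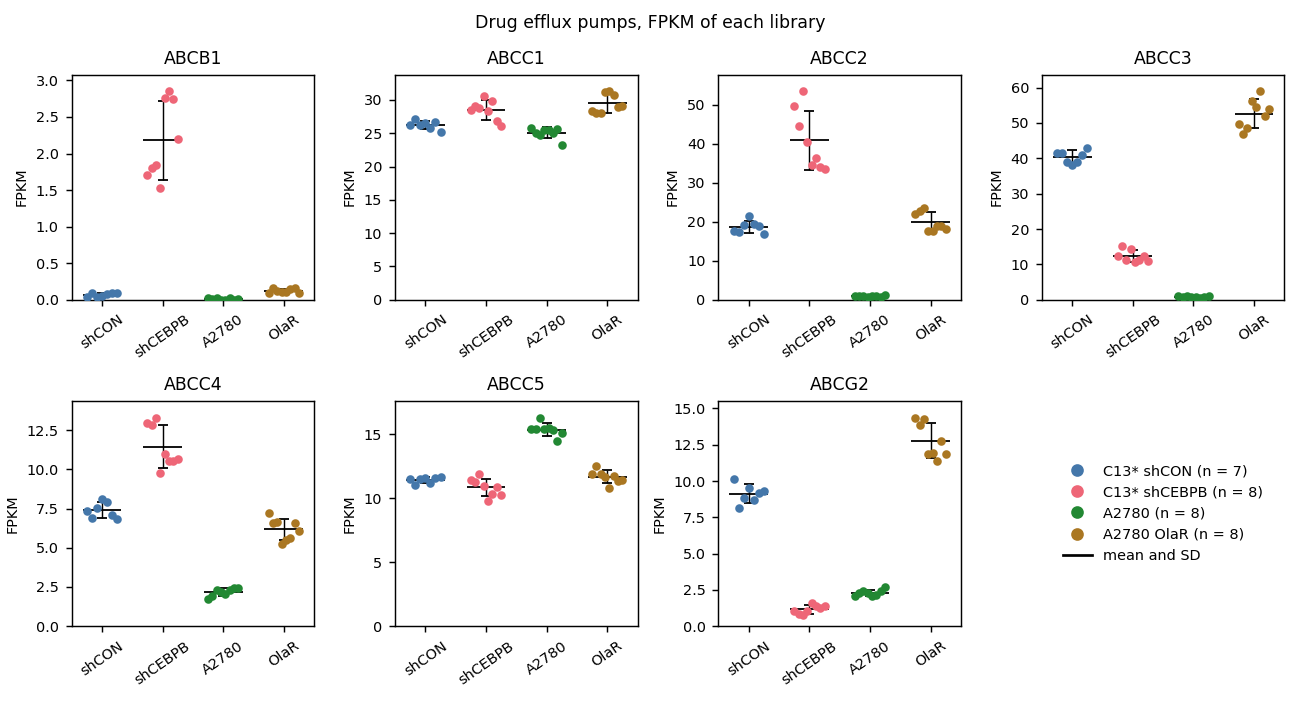
FPKM of each library (points, linear axes from 0, a separate axis for each gene) for the 7 drug efflux pumps in the 4 groups, with the mean (line) and SD (bars). ABCB1 is raised in shCEBPB alone, ABCC3 and ABCG2 are high in shCON and OlaR, ABCC2 and ABCC4 are highest in shCEBPB, and ABCC1 stays between 23.2 and 31.3 FPKM throughout.

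All 6 pairs of groups were also compared for each pump with a two-sided exact permutation test of the means of log2(FPKM + 1), 42 tests in all with Benjamini-Hochberg adjustment. A difference passed an adjusted p of 0.05 in 39 of them, and in 33 the groups were apart with no overlap, which gives the smallest p such a test allows, 0.000155 (adjusted p = 0.000198). The 3 that did not pass were ABCC1 between shCEBPB and OlaR (exact p = 0.199, difference -0.05), ABCC2 between shCON and OlaR (exact p = 0.263, difference -0.09) and ABCC5 between shCON and OlaR (exact p = 0.334, difference -0.02). The test passed ABCC5 between shCON and shCEBPB narrowly, at an exact p of 0.046 and an adjusted p of 0.0495. High counts are what most genes gave, since the groups had no overlap for 66% of all genes tested with limma in shCEBPB against shCON, 74.1% in OlaR against A2780 and 72.3% in shCEBPB against A2780, but for 16.6% in shCON against OlaR. No such share was computed for shCON against A2780 or shCEBPB against OlaR, and the permutation test was not run on all genes. The numbers of pairs passing and apart are therefore no result about pumps. The permutation test used no filter on low values. It counts ABCB1 between groups with means of 0.0112 to 0.124 FPKM, and differences called descriptions above remain so here.

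Summed over the 7 pumps, FPKM were 112 to 115 in shCON (mean 113), 95.1 to 121 in shCEBPB (mean 107), 131 to 138 in OlaR (mean 133) and 45.6 to 47.7 in A2780 (mean 46.7). The sum was thus close in shCON and shCEBPB while its makeup was not. ABCC3 held 35.7% ± 1.7 (SD, n = 7) of it in shCON and 11.5% ± 1.4 (n = 8) in shCEBPB, and ABCC2 held 16.5% ± 1.3 and 37.8% ± 3.6. ABCG2 held 8.04% in shCON, 9.63% in OlaR, 4.93% in A2780 and 1.11% in shCEBPB. In A2780 the pumps ABCC1 and ABCC5 made up most of the sum, at 53.7% ± 1.5 and 32.9% ± 0.86 (n = 8). ABCB1 reached 2.08% in shCEBPB and was under 0.1% on average elsewhere. FPKM are levels of RNA, and neither protein nor transport was measured in these files.

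**Figure D3:**
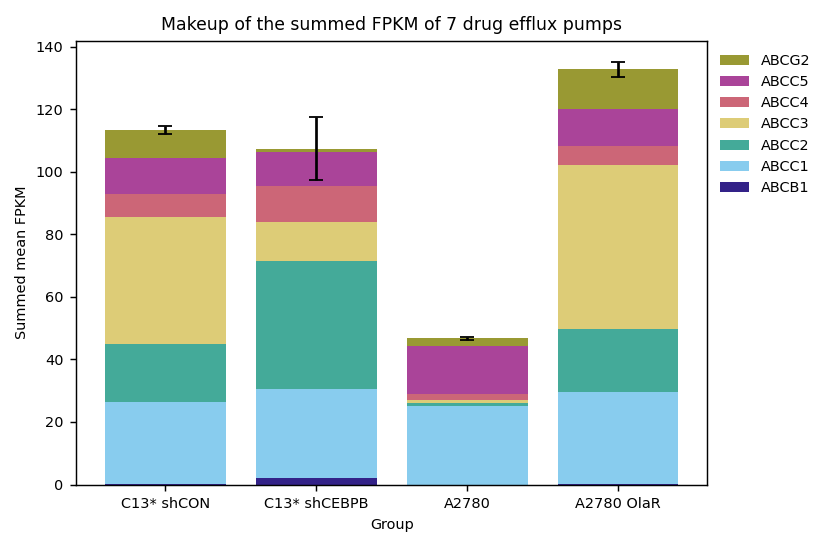
Summed mean FPKM of the 7 drug efflux pumps by group (stacked bars from 0; error bars are the SD of the sum over libraries, n = 7 in shCON and 8 in the others). The bars of shCON, shCEBPB and OlaR reach 113, 107 and 133 FPKM with different segments for ABCC2, ABCC3 and ABCG2, and the A2780 bar reaches 46.7 FPKM.

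The first comparison of the study asked what changes when CEBPB is knocked down in C13*. With limma on log2(FPKM + 1) and adjusted p under 0.05, 12006 genes were tested, of which 38.9% were higher and 45.7% were lower in shCEBPB. Among the 28 members tested, 16 were higher and 9 were lower, and 3 (ABCC5, ABCE1 and ABCF3) were not called. The libraries did not overlap for 21 of the 28, against 66% of all genes. The median difference was 0.19 over the members and -0.07 over all genes, and 23 of the 28 had a mean of at least 1 FPKM in both groups. Of these 23, 20 were called and 16 did not overlap, while the other 5 passed the filter through the group where they were high. ABCG2, among the 23, also passed it through shCON. So many genes differed between these groups that a count of called members near the share of all genes is no result about ABC transporters. In libraries 1 to 3 alone 22 members were called, beside 9923 of 12079 genes. In libraries 4 to 8 alone there were 27, beside 10437 of 12100 genes. Without shCON replicate 1 the call of ABCB10 was lost, at -0.18 against -0.19 with it.

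The second comparison set A2780 OlaR against the line it was derived from, to look for changes that come with olaparib resistance. Of 12458 genes 40.1% were higher and 49.7% were lower in OlaR, and libraries did not overlap for 74.1%. Of 27 members 11 were higher, 12 were lower and 4 (ABCA2, ABCC10, ABCE1 and ABCF3) were not called, and libraries did not overlap for 21. Of these 27, 22 had a mean of at least 1 FPKM in both groups, of which 18 were called and 16 did not overlap, and the other 5 passed the filter through the group where they were high. ABCG1, among the 22, also passed it through OlaR. The median difference was -0.07 over the members and -0.12 over all genes. Of the 6 pumps tested, 5 were higher in OlaR and ABCC5 was lower by 0.37. ABCC2 and ABCC3, among these 5, passed the filter through OlaR, where they were high, so their direction here is a description. With so many of all genes called, this count is no result about pumps.

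Between the groups that resembled each other, shCON and OlaR, 22.9% of 11547 genes were higher in shCON and 19.3% were lower, and libraries did not overlap for 16.6%. Of 26 members 4 (ABCC4, ABCE1, ABCF1 and ABCF2) were higher in shCON and 7, among them ABCC1, ABCC3, ABCG2, ABCA2 and ABCA3, were lower, and 15 were not called. Libraries did not overlap for 5 of them: ABCC1, ABCC3, ABCG2, ABCA3 and ABCE1. The widest difference was that of ABCG2, at -0.44 ± 0.06 (limma, adjusted p = 8.14e-06), followed by ABCE1 at 0.39. In libraries 1 to 3 alone 9 members were called, beside 5496 of 11568 genes. In libraries 4 to 8 alone there were 13, beside 6538 of 11571 genes. Without shCON replicate 1 there were 10, beside 4648 of 11571 genes. With so many of all genes called, these counts are no result about ABC transporters.

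Between shCEBPB and A2780, the drug-sensitive arms of the earlier comparisons, 37.4% of 12234 genes were higher and 51.5% were lower in shCEBPB, and libraries did not overlap for 72.3%. Of 28 members 14 were higher and 11 were lower, and libraries did not overlap for 21. The members not called were ABCA3, ABCB10 and ABCF3. Of the 28, 21 had a mean of at least 1 FPKM in both groups, of which 18 were called and 14 did not overlap, and the other 7 passed the filter through the group where they were high. ABCG2 and ABCA5, among the 21, also passed it through A2780. The median difference was 0.12 over the members and -0.18 over all genes. These comparisons share groups with the earlier ones, and their values are given side by side only.

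**Figure D4:**
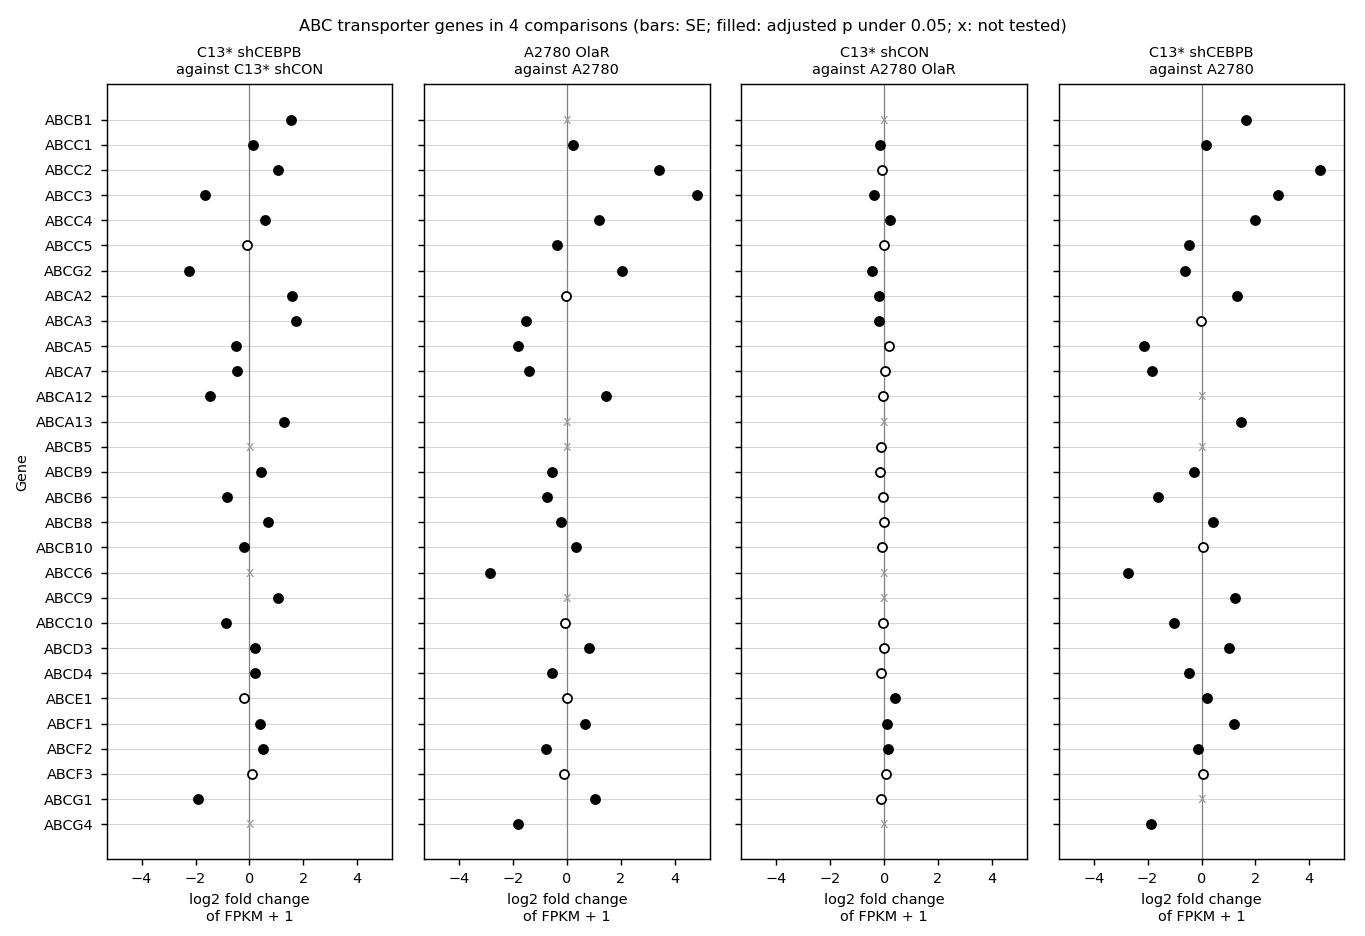
Difference in mean log2(FPKM + 1) of each ABC transporter gene (rows) in the 4 comparisons (panels; first-named group minus second, n = 7 for shCON and 8 for the others). Bars are SE and are mostly smaller than the points, filled points have an adjusted p under 0.05 (limma), and crosses mark genes that did not pass the filter on low values. In shCON against OlaR no gene is farther from 0 than ABCG2 at -0.44, while the other panels hold members beyond 1 in either direction.

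Among the lipid transporters of subfamily A, 6 of 12 had a mean of at least 1 FPKM in some group. ABCA2, a lysosomal lipid transporter, stood at 45.6, 51.1 and 62.0 FPKM in shCEBPB and between 16.0 and 23.1 FPKM in every other library, a difference of 1.56 ± 0.05 against shCON (limma, adjusted p = 6.8e-15). ABCA3, which loads surfactant lipid into lamellar bodies, was at 16.3 to 25.3 FPKM in shCEBPB and 18.6 to 22.7 in A2780 but at 5.54 to 5.69 in shCON and 5.87 to 7.28 in OlaR. ABCA3 thus rose by 1.71 ± 0.08 in shCEBPB against shCON and fell by 1.53 ± 0.05 in OlaR against A2780, and shCEBPB and A2780 overlapped. ABCA7, a phospholipid transporter, was at 20.3, 23.9 and 27.4 FPKM in A2780 and at most 9.68 FPKM elsewhere. It fell by 1.41 ± 0.06 in OlaR against A2780 and was lower by 1.84 ± 0.09 in shCEBPB than in A2780.

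ABCA5, a lysosomal member, was at 8.59, 9.27 and 9.96 FPKM in A2780, 2.04 to 2.57 in shCON, 1.44 to 2.52 in OlaR and 0.878 to 1.56 in shCEBPB. It fell by 1.81 ± 0.07 in OlaR against A2780 (limma, adjusted p = 1.45e-15). ABCA5 lies on chromosome 17 in a row with ABCA8 (from 68867289), ABCA9, ABCA6 and ABCA10 (to 69244846) on the same strand. The other members of this row were low, and ABCA6, ABCA9 and ABCA10 had their highest mean in A2780 too, at 0.299, 0.460 and 0.619 FPKM, against at most 0.042 in any other group. ABCA8 had its highest mean in shCEBPB, at 0.522 FPKM. Exons of ABCA5 and ABCA10 share 318 bases on the same strand, so fragments there could be counted for either.

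ABCA12, which moves lipids into the lamellar granules of keratinocytes, was seen in the groups with the highest squamous sums. It stood at 1.42, 1.67 and 2.42 FPKM in shCON and 1.57, 1.73 and 2.18 in OlaR, and at most 0.0845 FPKM in any A2780 or shCEBPB library. Its log2(FPKM + 1) differed by -1.45 ± 0.06 in shCEBPB against shCON and by 1.46 ± 0.05 in OlaR against A2780. It passed the filter on low values only through the group where it was high, and these differences are descriptions. The summed squamous markers, given above, moved with it, and their part in the ABCA12 difference was not tested. The squamous marker SFN still had a mean of 129 FPKM in shCEBPB, where ABCA12 had 0.0143 FPKM. ABCA13, the largest ABC protein, stood at 1.57, 1.83 and 2.04 FPKM in shCEBPB and at most 0.189 FPKM in any library of the other groups.

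Of the subfamily B members that are neither pumps nor mitochondrial, ABCB9, a lysosomal peptide transporter, was the highest in every group, with means of 3.11 to 5.70 FPKM. Its exons share 2752 bases with a gene on the opposite strand, and strand use in the counting is not given in the sources used here. ABCB5, a member described in skin and melanoma cells, had means of 1.04 FPKM in shCON and 1.23 in OlaR and libraries at 0 to 0.142 in the other groups. Of the mitochondrial members, ABCB6, ABCB8 and ABCB10 were at 6.46 FPKM or more in every group mean.

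ABCB6 is known for porphyrin transport. ABCB6 was at 23.2, 27.5 and 31.3 FPKM in A2780, 13.8, 14.8 and 17.3 in shCON, 12.98, 16.0 and 19.0 in OlaR and 6.56, 8.64 and 9.50 in shCEBPB. In shCEBPB against shCON ABCB6 fell by 0.84 ± 0.08 (limma, adjusted p = 3.11e-08). ABCB6 shares 2841 exonic bases with an overlapping gene on its own strand, and its value could hold fragments of that gene.

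Of the remaining subfamily C members, ABCC6 was above 1 FPKM in A2780 libraries and in no others. It stood at 6.63, 7.70 and 8.26 FPKM in A2780 and at most 0.407 FPKM in every other library, and its difference was -2.86 ± 0.04 in OlaR against A2780, a description, since it passed the filter on low values through A2780 alone. ABCC6, whose loss causes ectopic mineralisation, lies beside ABCC1 on chromosome 16 (16149565 to 16223522), and ABCC1 varied by a ratio of 1.18 only. ABCC6 has pseudogenes (ABCC6P1 and ABCC6P2) to which the authors' counting could have split fragments. ABCC9, a subunit of ATP-sensitive potassium channels, was at 1.20, 1.39 and 1.61 FPKM in shCEBPB and at most 0.213 FPKM elsewhere, and its channel partner KCNJ8 had means of at most 0.0899 FPKM. ABCC10, MRP7, which carries taxanes, was at 2.14, 3.78 and 4.14 FPKM in shCEBPB and between 6.17 and 9.49 FPKM elsewhere, a fall of 0.88 ± 0.09 against shCON.

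ABCD3, a peroxisomal half-transporter, was at 16.8 to 20.1 FPKM in A2780 and 28.0 to 44.2 elsewhere, and ABCD4, of lysosomal cobalamin transport, was highest in A2780 at 10.2 to 12.5 FPKM against 6.003 to 8.64.

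The ribosome-acting members were abundant in every group. ABCE1, a ribosome recycling factor, had group means of 46.2 to 61.3 FPKM, ABCF1 of 25.8 to 60.0, ABCF2 of 22.4 to 39.0 and ABCF3 of 20.4 to 22.8. ABCF3 was not called in any of the 4 comparisons, and its group means spanned a ratio of 1.12, the narrowest of the 21 members measured in all groups. ABCF1, an initiation factor partner, was at 57.3 to 62.8 FPKM in shCEBPB, 42.4 to 46.3 in shCON, 40.5 to 43.5 in OlaR and 24.2 to 27.1 in A2780, and it was higher by 1.19 ± 0.03 in shCEBPB than in A2780. ABCF2 has pseudogenes and shares 1914 exonic bases with a read-through gene, and its difference of -0.12 between shCEBPB and A2780 turned to 0.05 with median-ratio scaling. The difference of 0.21 ± 0.09 of ABCE1 in the same comparison became -0.02 in libraries 4 to 8 alone.

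The sterol transporters of subfamily G other than ABCG2 were low. ABCG1, which exports cholesterol to lipoproteins, was at 2.81, 3.29 and 3.47 FPKM in shCON, 3.03, 3.62 and 4.24 in OlaR, 0.984, 1.18 and 1.51 in A2780 and 0.0161, 0.133 and 0.197 in shCEBPB. It rose by 1.05 ± 0.05 in OlaR against A2780. This is a description, since 7 of 8 A2780 libraries reached 1 FPKM and ABCG1 passed the filter through OlaR. Its difference of -1.91 ± 0.05 in shCEBPB against shCON is a description too, since no shCEBPB library reached 1 FPKM and it passed the filter through shCON alone. ABCG4, its relative in brain, was at 2.34, 2.80 and 3.10 FPKM in A2780 and at most 0.114 FPKM elsewhere. ABCG5 and ABCG8, which share a start region on chromosome 2 and form 1 sterol pump, had no group mean above 0.0337 FPKM.

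Across the 31 measured members, 12 had their highest group mean in shCEBPB, 11 in A2780, 7 in OlaR and 1 in shCON. The same count was not made over all genes, so these numbers are no result about ABC transporters. Of the 21 at 1 FPKM or more in all groups, 10 spanned a ratio under 2 between their highest and lowest group means, and 5 of these under 1.5 (ABCF3, ABCC1, ABCB10, ABCE1 and ABCC5). Wide ratios were those of ABCG2 (10.97), ABCA5 (7.01) and ABCC4 (5.31).

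ABC proteins that bear other symbols gave a contrast. TAP1 and TAP2, the subunits of the peptide transporter of antigen presentation, stood at 41.7 to 52.6 and 26.3 to 29.4 FPKM in shCON and at 15.04 to 24.2 and 17.8 to 19.96 FPKM in shCEBPB, falls of 1.16 ± 0.09 and 0.51 ± 0.04 (limma, adjusted p = 2.02e-09 and 6.39e-10). In OlaR against A2780 they were higher by 0.18 and 0.13 with overlapping libraries, and both turned negative in libraries 1 to 3 alone, at -0.11 and -0.06. CFTR, a chloride channel, had no group mean above 0.0101 FPKM.

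Of 14 genes known to regulate ABC transporters, 12 were tested in shCEBPB against shCON, of which 3 were higher and 7 were lower, against 38.9% and 45.7% of all genes. Those beyond 1 on the log2(FPKM + 1) scale were NR1H3 (1.79) and AHR (1.26), the oxysterol and aryl hydrocarbon receptors, which rose, and HIF1A (-1.74) and KEAP1 (-1.46), the hypoxia factor and the inhibitor of NRF2, which fell. NFE2L2, the gene of NRF2, fell by 0.32 with overlapping libraries. In OlaR against A2780, 10 of 13 were higher and 2 were lower, against 40.1% and 49.7% of all genes, with PPARG (2.41), RXRA (2.27), NR1H3 (1.13), AHR (1.11) and HIF1A (1.06) beyond 1. In shCON against OlaR 3 of 12 were called, all lower, against 22.9% higher and 19.3% lower among all genes. In shCEBPB against A2780 5 of 13 were higher and 6 were lower, against 37.4% and 51.5% of all genes, with NR1H3 (2.55), PPARG (2.41), AHR (2.36), RXRA (1.26), FOXO3 (-1.28) and NR1I3 (-1.20) beyond 1. With 12 or 13 genes tested and so many of all genes called, these counts are no result about regulators. NR1I2, the PXR gene, known for inducing ABCB1, had no group mean above 0.0194 FPKM.

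Of 12 genes for partners of the transporters, 7 were tested in shCEBPB against shCON, where 2 were higher and 4 were lower, against 38.9% and 45.7% of all genes. With this few genes and so many genes called, these counts are no result about partners. GCLC, the catalytic subunit of glutathione synthesis, which supplies the MRP pumps, stood at 9.19 to 12.2 FPKM in shCEBPB and 36.9 to 38.2 in shCON, a fall of 1.71. In OlaR against A2780 3 of 9 were higher and 6 were lower (40.1% and 49.7% of all genes), with GCLC (2.02) and GSS (1.17) higher and PDZK1 (-4.77), APOE (-2.29), KCNJ11 (-1.59), EZR (-1.10), RDX (-1.06) and PEX19 (-1.06) lower by more than 1. PDZK1, a scaffold that binds apical transporters such as ABCC2, was at 27.9 to 34.2 FPKM in A2780, where ABCC2 was low, and at most 1.47 FPKM elsewhere. In shCON against OlaR 1 of 7 was higher and 2 were lower, none by 1 or more (22.9% and 19.3% of all genes), and in shCEBPB against A2780 1 of 9 was higher and 7 were lower (37.4% and 51.5% of all genes), with PDZK1 (-4.08), APOE (-3), KCNJ11 (-2.19) and PEX19 (-1.15) lower by more than 1. In the comparisons with A2780, PDZK1, KCNJ11, NR1I3 and, in shCEBPB against A2780, APOE passed the filter on low values through A2780 alone, and their differences are descriptions.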

How the data were processed

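RNA of 31 libraries was read as 150-bp pairs. Per the labels and the study's methods, hg38 was the genome, TopHat the aligner and HTSeq the counter. The table deposited by the authors holds FPKM. The tool, gene annotation and strand setting behind it are not given in the sources used here. All columns were matched to samples by their labels (0 were not). Of 19225 entries, 4 had a repeated symbol and were dropped, and no libraries were identical. The exact test of edgeR used by the authors needs counts, so limma 3.58.1 (R 4.3.3, eBayes with trend) was run on log2(FPKM + 1) of the 2 groups compared. Genes entered with at least 1 FPKM in a number of libraries equal to the size of the smaller group. Tests were two-sided with Benjamini-Hochberg adjustment over all genes tested and a threshold of 0.05. A fold change on this scale understates changes of low genes. Absolute depth is unknown. Relative depth was read from 383 genes under 0.1 FPKM, where 94.4% of 4686 values were whole multiples of a step with a tolerance of 0.05.

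The members, lists and tests were chosen with earlier results of these data known. The 7 pumps are always described. Other members are named where they were called with no overlap and a log2 difference of at least 1 in a comparison, or were the highest of their role group, and genes of the other lists where called with such a difference. Members named beside these (the rest of the mitochondrial, peroxisomal and ribosome-acting members, ABCB5, and the members under 1 FPKM) complete their groups, 2 members are counted but not reported here, and NFE2L2, NR1I2, KCNJ8 and ABCB4 were named after their values were seen. Library numbers 1 to 3 and 4 to 8 come from the library codes. Within a group some pumps were split between these ranges. ABCC2 in OlaR stood at 22.1 to 23.5 FPKM in libraries 1 to 3 and 17.6 to 19.0 in libraries 4 to 8. Others overlapped, such as ABCC1 and ABCC5 in shCON. The cause of such splits was not tested. Libraries with the same replicate number did not deviate together on average (mean r of -0.148 to -0.261 over the comparisons), and no pairing was used. Their mean r lay below that of libraries with different replicate numbers (0.0234 to 0.0416). In shCON the replicate number differs from the library number in some libraries, and this check was not run by library number. Positions come from GENCODE 44. Other steps used Python 3.11.15 with scipy 1.17.1, pandas 2.3.3, numpy 2.4.6 and, for figures, matplotlib 3.10.9. Simulated data with known changes were used to test the limma step. The alternatives were other pseudocounts (0.1 and 0.01), filters (none and 5 FPKM), scalings, blocks, library ranges, a rank test, stricter thresholds and a fit without shCON replicate 1.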

Additional observations from a re-analysis of the deposited data

Results flagged for a closer look

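Over 94 combinations of a member and a group with a mean of at least 1 FPKM, the gap between an extreme library and its nearest neighbour was checked against Dixon's limit, which chance exceeds in about 1 in 20 groups, and 6 exceeded it. The low values were ABCC1 in A2780 replicate 8 at 23.2 FPKM (the others 24.8 to 25.8), ABCA5 in shCEBPB replicate 4 at 0.878 FPKM (1.26 to 1.56), ABCC10 in shCEBPB replicate 3 at 2.14 FPKM (3.22 to 4.14), and, in shCON replicate 2, ABCF1 at 42.4 FPKM (44.8 to 46.3) and ABCG1 at 2.81 FPKM (3.19 to 3.47). The high value was ABCD3 in shCON replicate 3 at 37.0 FPKM (31.3 to 33.5).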

How the results depend on the processing

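Over 16 alternatives, 1615 of 1790 values of a single member, TAP1 or TAP2 in a comparison kept their direction and their side of the threshold, 110 lost and 25 gained a call and 40 changed sign. The number of members called stayed within 1.5 times its main value except with a fold change of at least 2, which left 11 of 25 in shCEBPB against shCON, 12 of 23 in OlaR against A2780, 16 of 25 in shCEBPB against A2780 and 0 of 11 in shCON against OlaR (limma; 14 at an unadjusted p under 0.05), and without a filter in OlaR against A2780, where 37 were called because members under 1 FPKM entered. The members tested in these comparisons numbered 28, 27, 28 and 26 in the same order. Of all genes tested, that fold change left 3539 of 12006, 4446 of 12458, 4710 of 12234 and 68 of 11547. Without a filter 13711 of 17638 genes were called in OlaR against A2780. Whether members differed from all genes in these shares was not tested. The number of pump differences passing stayed between 36 and 39 of 42.

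Log2 differences that changed sign were small. Among libraries 1 to 3 alone the signs turned for ABCC5 (0.0159), ABCE1 (0.122) and ABCF3 (-0.122) in shCEBPB against shCON, for TAP1 (-0.112) and TAP2 (-0.0609) in OlaR against A2780, for ABCB6 (0.188), ABCB9 (0.105), ABCB8 (0.091), ABCD3 (-0.0825) and ABCC10 (0.136) in shCON against OlaR, and for TAP2 (-0.0479), ABCF3 (-0.175) and ABCA3 (0.0362) in shCEBPB against A2780. Among libraries 4 to 8 alone they turned for ABCE1 (-0.193), ABCF3 (0.0187), ABCC10 (0.0693) and ABCA2 (0.116) in OlaR against A2780, for ABCA12 (0.109), ABCC5 (0.0116), ABCF3 (-0.0221), ABCA7 (-0.0824) and ABCC2 (0.0604) in shCON against OlaR, and for ABCE1 (-0.0221) and ABCB10 (-0.0608) in shCEBPB against A2780. Median-ratio scaling turned ABCF3 (0.0463), ABCC10 (0.0504) and ABCA2 (0.104) in OlaR against A2780, ABCD3 (-0.0042) in shCON against OlaR, and ABCF2 (0.0539) and ABCA3 (0.154) in shCEBPB against A2780. Quantile normalization turned ABCC10 (0.0629) and ABCA2 (0.0421) in OlaR against A2780, and ABCB9 (0.075) and ABCA3 (0.0156) in shCEBPB against A2780. A common sum turned ABCE1 (-0.0506) in OlaR against A2780, ABCB8 (0.0016) in shCON against OlaR, and TAP2 (-0.0245) in shCEBPB against A2780. ABCB9, ABCF2 and ABCE1 in shCEBPB against A2780, and TAP1 and TAP2 in OlaR against A2780, had been called. The cause of these changes was not tested. Median-ratio scaling moved the median difference of all genes from -0.12 to 0.006 in OlaR against A2780 and from -0.18 to -0.0195 in shCEBPB against A2780.

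The replicate numbers give no shared culture, day or batch, and libraries with the same replicate number did not deviate together on average. With a replicate block, 25, 23, 9 and 24 members were called in the 4 comparisons in the order of the text, against 25, 23, 11 and 25 without it, and ABCB8 in shCON against OlaR turned from -0.0072 to 0.0024. With a block on library numbers, 23, 23, 9 and 24 were called, and in shCON against OlaR ABCB8 was 0.0082 and ABCD3 -0.0064. Of all genes, 10166, 11190, 4876 and 10877 were called without a block. The replicate block gave 9885, 10960, 3436 and 10655, and the library-number block 9833, 10960, 3510 and 10655. The member counts are therefore no result about ABC transporters.

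Depth limits the low members: FPKM give no read totals, so no counting error or detection limit was computed, and values of 0 or near 0 are given as listed.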
